A study of Mus musculus with 6 samples.

Results

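Chemokines are small secreted proteins that guide moving cells along their gradients, and their receptors are seven-helix membrane proteins that signal through inhibitory G proteins. They are sorted into classes by the spacing of their first cysteines: CC, CXC with 1 residue between them, CX3C with 3, and XC. In the embryonic cortex Cxcl12, made by the meninges and by intermediate progenitors, holds Cajal-Retzius cells and interneurons in their streams through Cxcr4 and Ackr3, and most other members are known from immune cells.

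The genes described here are all those of the deposited result table whose symbol begins as a chemokine ligand (Ccl, Cxcl, Cx3cl1, Xcl1), a chemokine receptor (Ccr, Cxcr, Cx3cr1, Xcr1) or an atypical receptor (Ackr1 to Ackr4) and whose mean was above 0. There were 41 such genes, 23 ligands and 18 receptors, among 63 symbols with such names and 25239 symbols in all. The other 22 symbols, among them Cxcl1, Cxcl2, Cxcl9, Ccl19, Ccl20, Ccr4 and Xcl1, had no read in any library, and a count of 0 allows up to 3 reads in a library.

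The study used in utero electroporation with Breasi-CRISPR, a method that inserts a DNA change at a CRISPR cut in the living embryonic brain, on C57BL/6J mice. Embryos of 1 group received the Thr280Ala change in Ccnd2, the gene of cyclin D2 (labelled MPPH, 3 libraries), and those of the control group received GFP only (3 libraries). Electroporation took place at E13.5 (days of embryonic life), and polyadenylated RNA of the electroporated cortical region was taken at E15.5. Such a region holds electroporated and other cells together, and the labels record wild-type genotype for all 6 libraries, no count of embryos per library and no promoter for the plasmids.

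The deposited file is a single DESeq2 comparison with no values per library, and it does not state which condition is the numerator. Genes are therefore described by the 2 sides of the fold change: the positive side is the set of 3 libraries in which a gene with a positive fold change was higher, and the negative side is the other 3. Which side carries Thr280Ala was not determined here. The reads of each library were recovered from the digits of the deposited means, with exactly 1 solution in the range searched for each of the 41 genes. On each side library 1 is the one with the highest size factor and library 3 the one with the lowest. Those numbers match no label and pair no libraries.

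The means summed to 23691630 normalised reads per library over all genes, and the chemokines and receptors took 0.0184% of them. Size factors lay between 0.904 and 1.11 for the positive libraries and between 0.850 and 1.11 for the negative ones. Positive library 3 stood apart from its side: 9 marker genes of meninges and fibroblasts summed to 4826, 6524 and 411 normalised reads in positive libraries 1, 2 and 3, against 376, 275 and 355 in the negative libraries. The values of the members that turn on it are therefore also given without it. The dorsal cortex marker Tbr1, a check of the labelled tissue, had a mean of 14240 normalised reads in the authors' deposited table. Whether libraries come from separate embryos is not stated, so p-values measure the spread between these libraries, and in bulk RNA fewer cells and less RNA per cell cannot be told apart.

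The class-defining cysteines can be read in the coding sequence, and the stretches below show the ligands on which the results turn. Each is from the GENCODE M21 transcript of the gene on mm10, 5′ to 3′ on the coding strand, with the cysteine codons in capitals. Cxcl12 lies at chr6:117168535-117181367 (plus strand), Cxcl14 at chr13:56288643-56296551 (minus), Cx3cl1 at chr8:94772009-94782427 (plus), Ccl9 at chr11:83572919-83578636 (minus) and Ccl6 at chr11:83587882-83593087 (minus).
Cxcl12: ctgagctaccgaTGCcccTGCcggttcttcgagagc
Cxcl14: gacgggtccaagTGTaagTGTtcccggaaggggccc
Cx3cl1: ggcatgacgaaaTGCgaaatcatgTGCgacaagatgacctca
Ccl9: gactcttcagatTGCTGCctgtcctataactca
Ccl6: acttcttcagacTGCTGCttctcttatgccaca

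Cxcl12 and Cxcl14 keep 1 codon between the cysteines (codons 30 and 32, and 25 and 27) and Cx3cl1 keeps 3 (codons 32 and 36). The cysteine codons of the neighbouring ligand genes Ccl9 and Ccl6 adjoin each other, at codons 57 and 58 in Ccl9 and 50 and 51 in Ccl6.

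Of the 41 genes, 1 passed the authors' threshold of an adjusted p under 0.05: Ccr1, the receptor of several inflammatory CC ligands on monocytes, macrophages and neutrophils. Over all 18446 genes with a fold change, 25 passed, which is 0.136%: 16 of them were positive (0.0867%) and 9 negative (0.0488%). Before adjustment 5 of the 41 (Ccr1, Ccl9, Cxcl12, Ccr2 and Ccl6) had a p under 0.05 in the authors' deposited table, which is 12.2%, beside 3.96% of all genes. All 5 were positive and none was negative, beside 2.77% of all genes in the positive direction and 1.19% in the negative.

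Among the 18 with a mean of at least 10 normalised reads, 13 had a positive fold change in the authors' deposited table and the median log2 fold change was 0.18, beside 48% positive and a median of -0.0054 over all genes of that abundance. Among all 41 members 28 were positive with a median of 0.45, but 9 of the 41 had no read on 1 side, where a fitted fold change is no bound. The 32 members with reads on both sides had a median of 0.18, and 21 of them were positive. Ccr9 and Ccl7, the 2 further members above the 3-read limit, had reads on the positive side only. Set against 3 reads on the negative side, they brought the median to 0.32 over 34 members. That rise was fixed in advance, since the only members the limit admitted had reads on the positive side. Not above the limit were Ccr10 and Ccl1, with reads on the negative side only. Xcr1, Cxcl11, Ccl8, Cxcr6 and Ccr6, with reads on the positive side only, were not above it either. No conclusion is drawn from the rise.

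**Figure D1:**
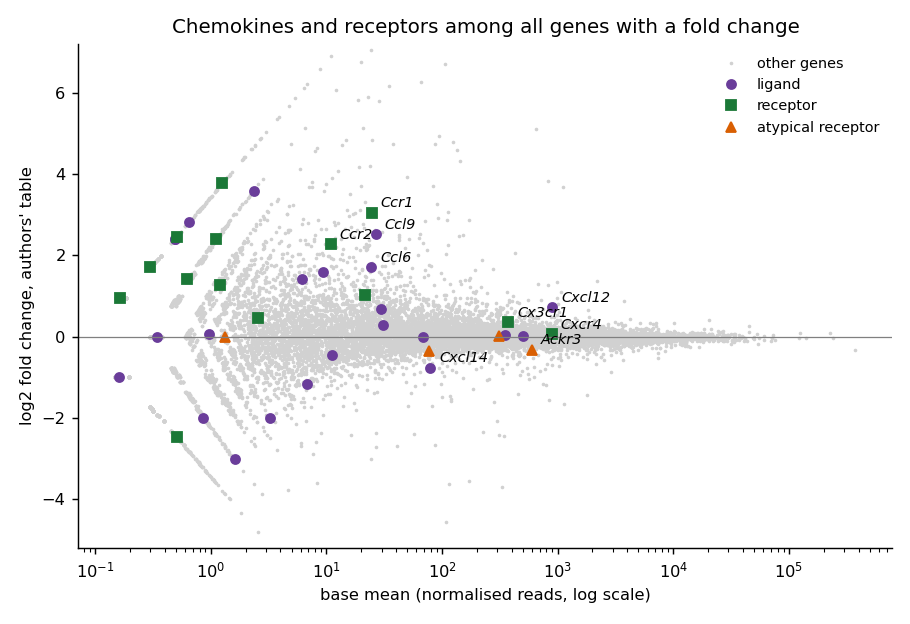
Log2 fold change in the authors' deposited table (y axis, positive over negative side) against base mean in normalised reads (x axis, log scale) for all genes with a fold change (grey) and the 41 chemokine ligands, receptors and atypical receptors (coloured marks). Ccr1, Ccl9 and Ccr2 stand above most genes of their abundance, while Cxcr4 lies near 0; 4 genes lie above the top of the plot.

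Per kilobase of exon, the level scale used here to compare genes, Cxcr4 came first at 493 normalised reads per kilobase. Ackr1 (219), Ccl27a (210), Ackr3 (178) and Cxcl12 (110) came next, then Cx3cl1 (89.7), Cx3cr1 (82.7), Cxcl14 (43.3) and Ackr2 (24.7). Cx3cr1 aside, the members known from myeloid cells that are described below were lower: Ccl6 stood at 13.6, Ccl9 at 8.79, Ccr1 at 8.71 and Ccr2 at 1.61 normalised reads per kilobase. Of these levels Ackr1 and Ccl27a are uncertain. Ackr1 shares 361 exonic bases, 25.7% of its exonic length, with Cadm3 on the same strand, and Cadm3 had a mean of 4902 normalised reads. Ccl27a shares 45% of its 50-base windows with transcripts of 6 other genes.

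Cxcl12 is the ligand of the migration pair, and it was the most abundant member before scaling by length. Positive libraries 1, 2 and 3 held 1066, 1588 and 706 normalised reads, against 704, 729.5 and 598 in negative libraries 1, 2 and 3. Positive libraries 1 and 2 lay above every negative library, whereas positive library 3 fell within the negative range. The side means were 1120.1 ± 444 for the positive and 677 ± 69.9 for the negative libraries (SD, n = 3 each). The authors' deposited table gave Cxcl12 a log2 fold change of 0.73 ± 0.23 (SE; 95% interval 0.27 to 1.18), an unadjusted p of 0.0018 and a DESeq2 adjusted p of 0.25, so it did not pass. Refitted to the recovered reads at the dispersion that returns the deposited standard error, the log2 fold change was 0.97 ± 0.26 without positive library 3 and 0.39 ± 0.26 without positive library 2.

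Cxcr4, the receptor through which Cxcl12 signals to G proteins, lies at chr1:128588199-128592293 (minus strand). It had 988, 1023 and 720.0 normalised reads in the positive libraries, against 945, 769 and 899 in the negative libraries. The sides overlapped, and positive library 3 was the lowest of all 6. The authors' deposited table put its log2 fold change at 0.06 ± 0.15 (95% interval -0.23 to 0.36) with a DESeq2 adjusted p of 1.00. Without positive library 3 the refitted value was 0.21 ± 0.17, and without positive library 2 it was -0.03 ± 0.17.

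Ackr3, the atypical receptor that takes up Cxcl12 and removes it from the tissue, lies at chr1:90203980-90216751 (plus strand). The positive libraries had 538, 629 and 423 normalised reads, against 782, 591 and 607 in the negative libraries. Positive library 2 exceeded negative libraries 2 and 3, so the sides overlapped. The authors' deposited table listed a log2 fold change of -0.32 ± 0.17 (95% interval -0.66 to 0.02), with an unadjusted p of 0.069 and a DESeq2 adjusted p of 1.00. Left-out libraries moved it between -0.46 (without positive library 2) and -0.18 (without negative library 1).

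**Figure D2:**
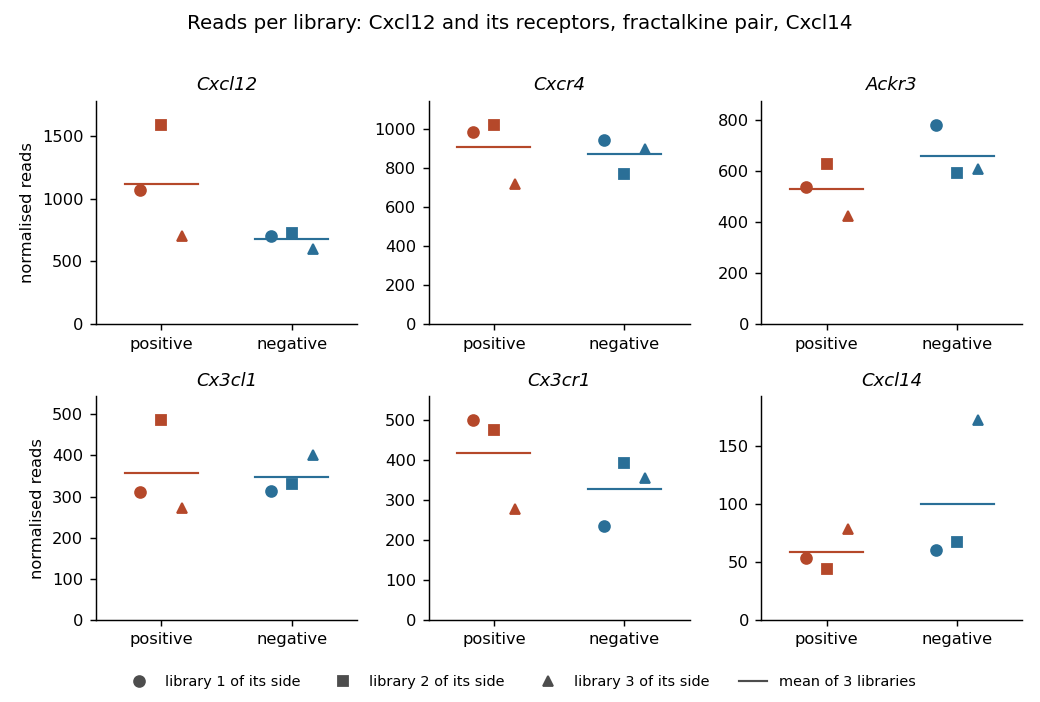
Normalised reads per library (y axis, linear from 0) of Cxcl12, Cxcr4, Ackr3, Cx3cl1, Cx3cr1 and Cxcl14, with the 3 positive libraries left of the 3 negative libraries (x axis) and a line at each side's mean. Cxcl12 is highest in positive libraries 1 and 2 (1066 and 1588), Cxcr4 overlaps between the sides, and negative library 3 is the highest for Cxcl14 (172).

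Fractalkine (Cx3cl1), a membrane-bound ligand of neurons, and its receptor Cx3cr1 of microglia overlapped between the sides. Cx3cl1 had 311, 485 and 273 normalised reads in the positive libraries, against 314, 331 and 400.1 in the negative libraries. Its log2 fold change in the authors' deposited table was 0.03 ± 0.22 (95% interval -0.40 to 0.47), with a DESeq2 adjusted p of 1.00. Cx3cr1 had 499.8, 475 and 278 normalised reads in the positive libraries, against 236, 394 and 354 in the negative libraries. Here too positive libraries 1 and 2 were the highest and positive library 3 lay inside the negative range. The authors' deposited table gave Cx3cr1 a log2 fold change of 0.35 ± 0.25 (95% interval -0.14 to 0.84; DESeq2 adjusted p 1.00). Refits without 1 library ranged from 0.16 (without negative library 1) to 0.57 (without positive library 3), and it was 0.20 without positive library 1 and 0.25 without positive library 2.

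Cxcl14, a homeostatic CXC ligand, had the lowest fold change of the members with a mean of at least 10. The positive libraries had 53.3, 44.0 and 78.5 normalised reads, against 60.2, 67.2 and 172 in the negative libraries. Negative library 3 alone stood high, and the other 5 overlapped. The authors' deposited table listed -0.76 ± 0.44 on the log2 scale (95% interval -1.62 to 0.09; DESeq2 adjusted p 1.00), and the refitted value was -0.12 without negative library 3 and -1.03 without positive library 3.

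Ccr1, at chr9:123962124-123968692 (minus strand), was the member that passed. It had 47, 77 and 13 reads in positive libraries 1, 2 and 3, against 5, 7 and 4 reads in negative libraries 1, 2 and 3. All 3 positive libraries exceeded all 3 negative ones, and positive library 3 was closest to them. As normalised reads the sides averaged 44.1 ± 30.5 in the positive and 5.31 ± 1.23 in the negative libraries (SD, n = 3 each). The authors' deposited table gave a log2 fold change of 3.05 ± 0.71 (95% interval 1.67 to 4.44) and a DESeq2 adjusted p of 0.024. Refits without 1 library ranged from 2.43 ± 0.78 (without positive library 2) to 3.47 ± 0.77 (without positive library 3). Only the refit without positive library 3 had a p at or below the largest p the authors called, and the 5 others ranged from 6.6e-05 to 0.0019 against that limit of 6.3e-05.

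Ccr2, the receptor that brings monocytes out of the blood, lies near Ccr1 on chromosome 9. Ccr2 had 21, 29 and 6 reads in the positive libraries, against 2, 5 and 4 reads in the negative libraries. The sides did not overlap in reads, though positive library 3 came within 1 read of negative library 2. The authors' deposited table listed a log2 fold change of 2.28 ± 0.85 for Ccr2 (95% interval 0.60 to 3.95), with an unadjusted p of 0.0077 and a DESeq2 adjusted p of 0.55. Refitted, it was 2.67 ± 0.93 without positive library 3 and 1.79 ± 0.95 without positive library 2.

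Among the ligands of these receptors, Ccl9 and Ccl6 carried most of the reads. Ccl9, a mouse ligand of Ccr1, had 48, 82 and 12 reads in the positive libraries, against 7, 12 and 5 in the negative libraries. Positive libraries 1 and 2 were far above the rest, and positive library 3 equalled negative library 2 in reads, though not after normalisation (13.3 and 11.5). The authors' deposited table gave Ccl9 a log2 fold change of 2.53 ± 0.69 (95% interval 1.17 to 3.89), an unadjusted p of 2.7e-04 and a DESeq2 adjusted p of 0.095. Its refitted value lay between 1.85 ± 0.77 (without positive library 2) and 2.96 ± 0.76 (without positive library 3).

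Ccl6, also a mouse Ccr1 ligand of macrophages, had 39, 74 and 4 reads in the positive libraries, against 9, 15 and 10 in the negative libraries. Positive library 3 was the lowest of all 6, so the sides overlapped more than for Ccl9. The authors' deposited table put its log2 fold change at 1.72 ± 0.79 (95% interval 0.16 to 3.27), with an unadjusted p of 0.031 and a DESeq2 adjusted p of 1.00. Refitted without positive library 2 it was 0.81 ± 0.90, and without positive library 3 it was 2.24 ± 0.88.

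Ccl5 and Ccl3, ligands of Ccr1 made by activated lymphoid and myeloid cells, were at a few reads. Ccl5 had 26, 18 and 1 reads in the positive libraries, against 2, 8 and 4 in the negative libraries. Ccl3 had 14, 11 and 3 reads in the positive libraries, against 4, 3 and 3 in the negative libraries. Both were high in positive libraries 1 and 2 and overlapped otherwise, and the authors' deposited table gave log2 fold changes of 1.59 ± 1.04 for Ccl5 and 1.43 ± 0.96 for Ccl3, each with a DESeq2 adjusted p of 1.00. Together with Ccl9, Ccl6 and Ccl4, they form a cluster at chr11:83525778-83664683. Its 5 members summed to 115, 181 and 23.2 normalised reads in the positive libraries, against 20.7, 38.4 and 31.8 in the negative libraries. The ratio of side means was 3.51, and it was 2.28 without positive library 2 and 4.88 without positive library 3. Of the 5, 4 had a positive fold change and 1, Ccl4, a negative one (-3.01 ± 2.07 on the log2 scale of the authors' deposited table). Ccl4 had 0, 0 and 1 reads in the positive libraries, against 1, 2 and 5 in the negative libraries.

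Another ligand cluster of chromosome 11, which holds the monocyte attractants Ccl2, Ccl7, Ccl8 and Ccl12 with Ccl11 and Ccl1, was nearly silent. Its 6 members summed to 2, 10 and 1 reads in the positive libraries, against 0, 13 and 8 reads in the negative libraries. The counts did not order by side.

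**Figure D3:**
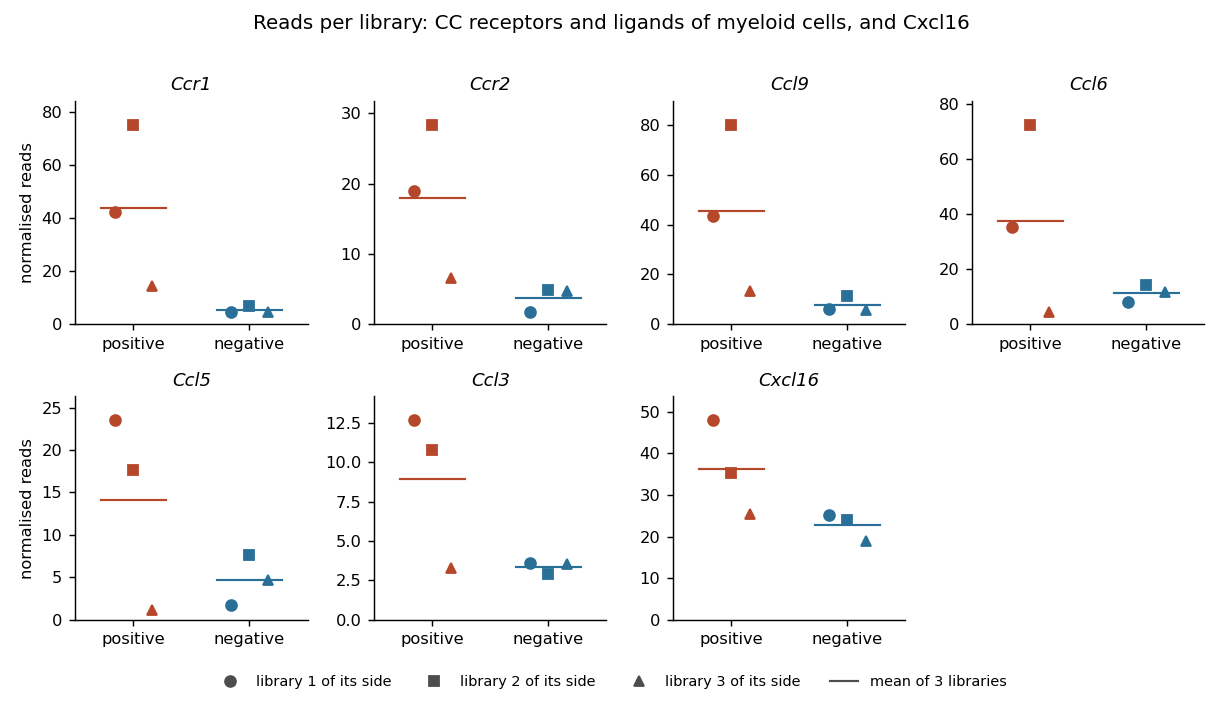
Normalised reads per library (y axes, linear from 0, scaled to each gene) of Ccr1, Ccr2, Ccl9, Ccl6, Ccl5, Ccl3 and Cxcl16, with the 3 positive libraries left of the 3 negative libraries and a line at each side's mean. Positive library 3 (triangle) is the lowest of its side for every gene shown, and for Ccr1 it stays above the negative libraries (14.4 against 4.49 to 6.72).

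The sequence upstream of Ccr1 and Ccl9 is shown because these members had the largest fold changes among those with a mean of at least 10 and were high in the same libraries. Both are the 250 bases before the RefSeq start on GRCm38.p6, minus strand, 5′ to 3′: chr9:123968693-123968942 for Ccr1 and chr11:83578637-83578886 for Ccl9. Capitals mark GAGGAA (a core that ETS factors such as PU.1 can bind) and TATAAA (the letters of the TATA box). Both were searched on both strands and are marked at any distance from the start.
Ccr1: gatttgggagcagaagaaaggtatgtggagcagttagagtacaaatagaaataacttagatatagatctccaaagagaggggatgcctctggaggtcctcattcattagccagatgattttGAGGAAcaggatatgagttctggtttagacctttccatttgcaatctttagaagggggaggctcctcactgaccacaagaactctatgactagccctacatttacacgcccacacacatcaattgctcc
Ccl9: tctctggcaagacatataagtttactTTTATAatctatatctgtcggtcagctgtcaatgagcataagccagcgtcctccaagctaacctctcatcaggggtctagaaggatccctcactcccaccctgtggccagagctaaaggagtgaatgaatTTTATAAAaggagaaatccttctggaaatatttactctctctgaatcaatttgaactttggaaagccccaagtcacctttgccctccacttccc

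The Ccr1 window holds GAGGAA 1 time and the Ccl9 window holds TATAAA 1 time on its own strand and 2 times on the other, where 1 match overlaps that on its own strand. Of the 29 members with an upstream sequence, 11 held GAGGAA and 9 held TATAAA, beside 23.3% and 12.4% of 32851 upstream windows of the same length. A member was counted when any of its windows held the letters, and Ccl25, Ccl27a and Ccr6 had more than 1 window. The percentages count single windows, so the counts and the percentages are not the same measure. A match is a description of letters and no evidence of binding.

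Cxcl16, the membrane-bound ligand of Cxcr6, had 53, 36 and 23 reads in the positive libraries, against 28, 25 and 16 in the negative libraries. After normalisation the lowest positive library (25.4) and the highest negative library (25.2) nearly met. The authors' deposited table listed a log2 fold change of 0.68 ± 0.44 (DESeq2 adjusted p 1.00). Its exons overlap those of Zmynd15 on the opposite strand over 18.3% of their length, and no label or header used here says whether strand was used in counting. Cxcl10, the interferon-induced ligand of Cxcr3, had 6, 6 and 1 reads in the positive libraries, against 3, 12 and 12 in the negative libraries. Its log2 fold change in the authors' deposited table was -1.16 ± 1.01 (DESeq2 adjusted p 1.00).

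The remaining CC ligands with a mean of at least 10 were Ccl27a and Ccl28 (skin and mucosal ligands of Ccr10), Ccl25 (the thymus and gut ligand of Ccr9) and Ccl17 (a ligand of Ccr4). Ccl27a had 460.0, 543 and 504 normalised reads in the positive libraries, against 504, 435 and 544 in the negative libraries. Ccl25 had 56.9, 70.5 and 78.5 in the positive libraries, against 68.3, 70.1 and 69.4 in the negative libraries. Neither ordered by side, and the authors' deposited table held log2 fold changes of 0.02 ± 0.14 for Ccl27a and -0.02 ± 0.27 for Ccl25. Ccl28 had 36, 48 and 20 reads in the positive libraries, against 16, 33 and 32 in the negative libraries, and Ccl17 had 8, 8 and 12 reads in the positive libraries, against 17, 5 and 16 in the negative libraries. Both overlapped between the sides, with log2 fold changes of 0.29 ± 0.51 for Ccl28 and -0.46 ± 0.75 for Ccl17 per the authors' deposited table. The receptors of these ligands were at or near 0: Ccr10 had 3 reads in all, Ccr9 had 8, and Ccr4 had none.

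Atypical receptors bind chemokines without signalling through G proteins. Ackr2, the scavenger of inflammatory CC ligands, had 78.6, 60.7 and 63.0 normalised reads in the positive libraries, against 101, 62.4 and 97.7 in the negative libraries. Ackr1, which carries chemokines across venules and marks red cells, had 287, 343 and 298 in the positive libraries, against 297, 287 and 338 in the negative libraries. The sides overlapped for both, with log2 fold changes of -0.36 ± 0.30 for Ackr2 and 0.01 ± 0.15 for Ackr1 per the authors' deposited table. Ackr4, the scavenger of Ccl19, Ccl21 and Ccl25, had 1, 2 and 1 reads in the positive libraries, and again 1, 2 and 1 in the negative libraries.

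**Figure D4:**
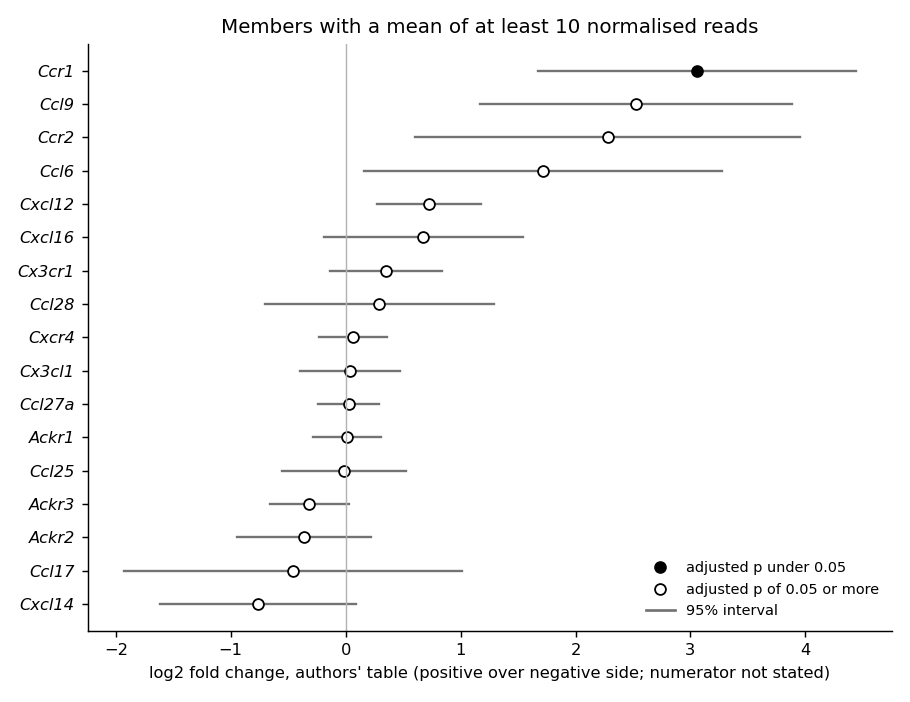
Log2 fold change with its 95% interval (x axis) in the authors' deposited table for 17 members with a mean of at least 10 normalised reads (y axis), with the positive side over the negative side. The filled point is Ccr1, with an adjusted p under 0.05; the intervals of Ccl9, Ccr2, Ccl6 and Cxcl12 also lie above 0 before adjustment, and no interval lies wholly below 0.

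The 23 members with a mean under 10 held few reads: 17 of them had fewer than 10 reads over all 6 libraries, and 6 had reads in 1 library only. Cxcr2, the neutrophil receptor, had 0, 9 and 0 reads in the positive libraries, against 1, 1 and 4 in the negative libraries. Ccr9 had 4, 4 and 0 reads in the positive libraries and 0 in each negative library. At this depth no difference was detectable for these members, and none of the 23 came under a p of 0.05 before adjustment per the authors' deposited table, beside 1.13% of all genes with such a mean.

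The libraries that were high for the myeloid members were also high for markers of other cells. Across the 18 members with a mean of at least 10, positive library 3 came lowest of the positive side for 12, and positive library 2 was the highest of all 6 libraries for 10. Border-associated macrophage markers (8 of 8 measured, 8 with a positive fold change, 1 called) summed to 1331, 1508 and 340 normalised reads in the positive libraries, against 284, 415 and 297 in the negative libraries. F13a1, Lyve1 and Pf4 had log2 fold changes of 4.59 ± 1.05, 4.85 ± 1.27 and 2.62 ± 0.71 per the authors' deposited table. Markers of monocytes and neutrophils (6 of 7 measured, Ly6g at 0, 6 positive, 0 called) summed to 88.6, 342 and 28.8 in the positive libraries, against 8.09, 8.64 and 38.8 in the negative libraries. S100a8 alone had 16, 85 and 11 reads in the positive libraries, against 1, 2 and 5 in the negative libraries. The part of these cells in the Ccr1, Ccl9, Ccl6 and Ccr2 values was not tested.

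Microglial markers (12 of 12 measured, 9 positive, 0 called) had 11 genes with recovered reads, summing to 4138, 4517 and 1886 normalised reads in the positive libraries, against 1767, 2843 and 2623 in the negative libraries. The median log2 fold change of the 12 was 0.47 per the authors' deposited table, beside 0.35 for Cx3cr1 and 3.05 for Ccr1. P2ry12, a marker of resident microglia, was 1 of the 3 with a negative value, at -0.10 ± 0.29. Of the 8 lymphocyte markers Cd3e, Cd3g, Cd8a and Ncr1 were at 0, and the other 4 summed to 3.32 to 10.8 normalised reads in the positive libraries, against 0 to 3.84 in the negative libraries. Of the 6 mast cell markers Cma1 and Mcpt4 were also at 0. The other 4 had a mean above 0, 3 of them positive and 1 negative, with 0 called. Reads were recovered for 3 of these, summing to 1.81, 6.85 and 0 normalised reads in the positive libraries, against 0, 2.88 and 0 in the negative libraries.

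Meningeal cells are a main source of Cxcl12, and all 10 of their markers had a positive fold change, 4 of them called. Col1a1, Cldn11 and Aldh1a2 had log2 fold changes of 5.11 ± 1.16, 6.70 ± 1.52 and 6.26 ± 1.56 per the authors' deposited table, with DESeq2 adjusted p of 0.024, 0.024 and 0.0465. The same libraries, positive 1 and 2, held the most Cxcl12 and the most of these markers. Of 10 endothelial markers, which also go with Cxcl12 and Ackr1 in other tissues, 8 were positive and 0 were called, with 9 of them summing to 3985, 4372 and 3400 normalised reads in the positive libraries, against 3513, 3006 and 3818 in the negative libraries. Intermediate progenitors are another source of Cxcl12: of 7 markers 5 were positive, 0 called, with a median log2 fold change of 0.34, and Mfap4, which had the smallest p, stood at 0.55 ± 0.15 per the authors' deposited table (DESeq2 adjusted p 0.091). Reads were recovered for 4 of them: Neurog1, Btg2, Gadd45g and Mfap4. These 4 summed to 3253, 2364 and 3110 normalised reads in the positive libraries, against 2538, 2945 and 2241 in the negative libraries. Positive library 2, the highest for Cxcl12, was the lowest of its side for that sum. The sum includes Btg2 and Gadd45g, the 2 negative markers of the list (-0.06 ± 0.16 and -0.10 ± 0.16). It lacks Eomes (0.34 ± 0.16), Neurog2 (0.35 ± 0.16) and Sstr2 (0.16 ± 0.19), whose means were above the limit for recovering reads. How the libraries order for those genes is not known, so the sum does not describe the whole list. The part of these 3 cell types in the Cxcl12 values was not tested.

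**Figure D5:**
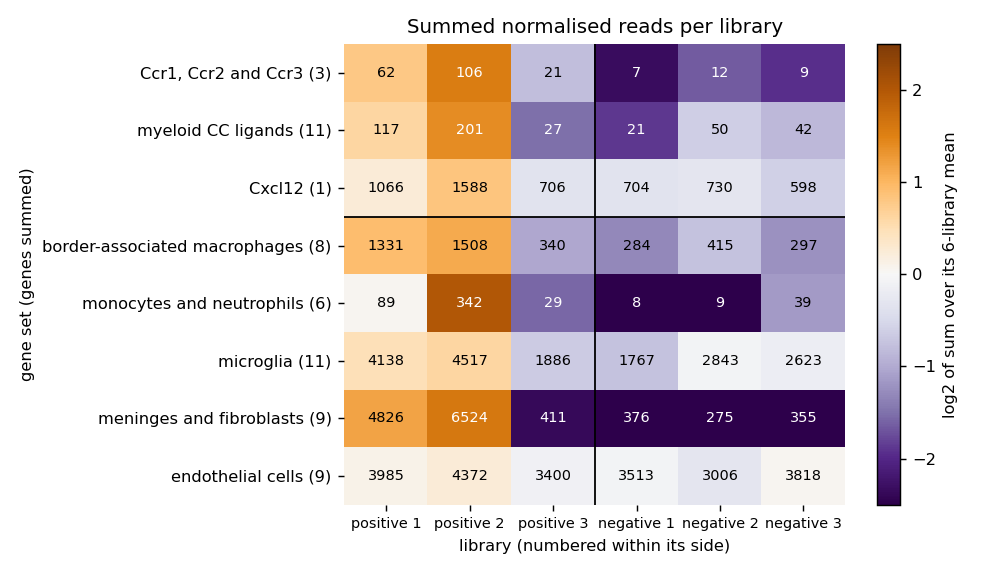
Summed normalised reads (printed in each cell) of 3 chemokine groups and 5 marker lists (rows, number of genes in brackets) in the 3 positive and 3 negative libraries (columns), coloured by the log2 of the sum over its mean across the 6 libraries. Positive libraries 1 and 2 are the highest in every row, for the chemokine groups and for all 5 marker lists. Positive library 3 is close to the negative libraries for meninges (411 against 275 to 376).

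Marker lists of cells known to answer Cxcl12 in this tissue are set beside its receptors. Of 10 markers of interneurons and the ventral forebrain, whose migrating cells carry Cxcr4 and Ackr3, 8 had a negative fold change, 2 of them called (Dlx5 and Dlx6), with a median of -0.81 on the log2 scale of the authors' deposited table. Of these, 7 summed to 3070, 3993 and 1905 normalised reads in the positive libraries, against 5338, 3451 and 4997 in the negative libraries. Lhx6 (-0.10 ± 0.14), Sst (0.24 ± 0.28) and Maf (0.08 ± 0.39) of the same list had values nearer 0 on that scale of the authors' deposited table. All 6 Cajal-Retzius markers were positive, 0 called, with a median log2 fold change of 0.22, and 5 of them summed to 1342, 2142 and 1113 normalised reads in the positive libraries, against 1151, 1346 and 1255 in the negative libraries. Those sums overlapped between the sides, and no difference between the lists was tested. Beside these, Cxcr4 stood at 0.06 ± 0.15 and Ackr3 at -0.32 ± 0.17 per the authors' deposited table. The part of these cells in the receptor values was not tested.

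Downstream of the receptors, 22 genes of G protein and arrestin signalling were measured, 10 positive and 12 negative, with 0 called. The smallest p belonged to Rac2, the Rac protein of blood cells, at 0.92 ± 0.41 on the log2 scale in the authors' deposited table, followed by Elmo1 at -0.27 ± 0.12 and Dock2, which activates Rac in blood cells, at 0.94 ± 0.49. Each had a DESeq2 adjusted p of 0.99 or 1.00. Rac2 had 117, 139 and 46 reads in the positive libraries, against 38, 65 and 50 in the negative libraries, with positive library 3 again inside the negative range.

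Of 10 chemokine relatives that the naming rule leaves out, 7 were positive and 0 were called. Platelet factor 4 (Pf4), a CXC chemokine by structure, had 66, 67 and 9 reads in the positive libraries, against 9, 6 and 7 in the negative libraries, with a log2 fold change of 2.62 ± 0.71 and a DESeq2 adjusted p of 0.082 per the authors' deposited table. Among 12 inflammatory cytokines and NF-kappaB targets 8 were positive and 0 were called, with a median of 0.07 on the log2 scale of the authors' deposited table. Il34, a ligand of the Csf1 receptor, had the smallest p of them at 1.15 ± 0.50 (DESeq2 adjusted p 0.97). Its reads were 36, 51 and 20 in the positive libraries, against 17, 14 and 16 in the negative libraries.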

How the data were processed

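RNA-seq of 6 cortical libraries (3 Thr280Ala, 3 GFP only) was read from 1 deposited table; the authors used cutadapt, featureCounts and DESeq2 with mm10, per the submitters' processing notes, which give no versions. Base means are the authors' normalised count signal, per the file headers. The log2 fold changes and their standard errors are the authors', per the file headers. Wald scores and p-values (Benjamini-Hochberg adjusted) are also as deposited, per the file headers. From these, reads per library were recovered: means are sums of whole reads weighted by 6 size factors, which 739 single-read genes reveal, and a candidate was kept when its negative binomial fit returned the deposited fold change within 1e-11. All 143 genes tried (means up to 1000) had 1 solution in the range searched, which for higher means was set around the deposited fold change. Leave-one-out refits kept the recovered size factors and, for each gene, the dispersion at which its 6-library fit returns the deposited standard error; neither was deposited. Intervals cover 95%. Base means were divided by GENCODE M21 exonic length. The tools were numpy 2.4.6, scipy 1.17.1, numba 0.67.0 and pandas 2.3.3 under Python 3.11.15, and the recovery was tested on simulated data. The simulated reads were built on genes with lower means than Cxcl12, Cxcr4, Ackr3, Ccl27a, Cx3cr1, Cx3cl1 and Ackr1, and had reads on both sides. The test therefore does not cover these members or those with no read on 1 side. Normalised reads per library averaged 23691630 in sum, and counting error is largest for members under 10 reads. The members and lists were chosen with earlier results of these data known. Named were each called member, each with a mean of at least 10, the 3 highest ligands and 3 highest receptors below that, and up to 3 genes per other list by smallest p with a mean of at least 10; other genes given were chosen after their values were seen. A single one of these members, and some marker values, are not reported here. The alternatives were other mean limits, p limits, centring and leaving out each library.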

Additional observations from a re-analysis of the deposited data

How the results depend on the processing

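The count of called members was 1. It stayed 1 when p was adjusted over genes at or above a mean of 10 (Ccr1 adjusted p 0.018 by Benjamini-Hochberg on the DESeq2 p), was 0 over those at or above 50, which leaves out Ccr1 itself, 2 at an adjusted p under 0.1 (Ccr1 and Ccl9) and 5 at an unadjusted p under 0.05. Leaving out each library in turn, a choice made after seeing the data, gave 0 to 1 called. It was 1 without positive library 3 and 0 without each of the other 5, among which the refitted Ccr1 log2 fold change was 2.43 to 3.27. Each refit kept positive library 1 or 2, so none could show how far the values rest on these 2 libraries. In normalised reads, positive library 3 over the negative mean was 2.71 for Ccr1, beside 8.30 with all 3 positive libraries. The same ratio for positive library 3 was 1.68 for Ccl9, 1.76 for Ccr2 and 0.39 for Ccl6. The 28 positive members became 13 with the mean limit of 10, since fewer members are counted, and stayed 28 when centred. All 24 ratios of side means from the reads lay within 1 standard error of the deposited value. That was fixed in advance, because reads were kept only where their fit returned the deposited fold change, so it is no check. Of 144 ratios without 1 library, 136 also lay within 1 standard error, a wide margin for members with few reads (1.91 for Cxcr2, 2.71 for Ccr9). The 8 further away were, without positive library 2, Ccr1 (2.32), Ccl9 (1.78), Cxcl12 (0.39), Ccl6 (0.77), Cx3cl1 (-0.25) and Cxcr2 (-2.43), with Cxcl12 (0.97) without positive library 3 and Cxcl14 (-0.12) without negative library 3. Refitted signs changed for Cxcr4, Ccl27a, Cx3cl1, Ackr1, Ccl25 and Ccl28, all uncalled. No paired analysis was possible because the deposited table carries no replicate numbers.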
